A study of Mus musculus with 6 samples.

Results

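The genes described here are 9 integrin subunits of thymocytes and *Cd44*, the gene of a hyaluronan receptor. They are the α chains *Itga4*, *Itga5*, *Itga6*, *Itgae*, *Itgal* and *Itgav*, the β chains *Itgb1*, *Itgb2* and *Itgb7*, and *Cd44*. Members were chosen by name, as probe sets whose platform annotation gives exactly 1 of these 10 genes, which took 22 of the 22690 probe sets. Each probe set has 1 log2 RMA value per array, that is, an expression value after background correction, quantile normalization and summary of its probes, so that a difference of 1 log2 unit is a 2-fold change. A total of 3 arrays carry the label SCLtg LMO1tg and 3 the label control. The label SCLtg LMO1tg stands for C57BL6 mice that lack *Cd3ε* (CD3e-/-) and carry the transgenes Sil-SCL, which drives SCL from the Sil promoter, and Lck-LMO1, which drives LMO1 from the Lck promoter of T cells. The control mice are CD3e-/- of the same strain without a transgene. Loss of *Cd3ε*, which both groups share, takes away pre-TCR signals, so that thymocytes stop at the double negative (CD4-CD8-) stages. All mice were untreated and 3 weeks old, and the labels name thymocytes with no sort. Nothing in the sources used here ties each array to a mouse of its own. The p-values therefore set differences against the variation among these samples, 3 a group, which may be technical. The comparison asks how gene expression of these thymocytes differs with both oncogenes, here for the receptors with which they adhere.

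Integrins are cell surface receptors built of 1 α and 1 β chain, and neither chain reaches the surface in quantity without its partner. In thymocytes α4β1 and α5β1 bind fibronectin, α4β1 also binds VCAM-1, α6β1 binds laminin, αVβ1 binds fibronectin and vitronectin, αLβ2 (LFA-1) binds ICAM-1 on other cells, α4β7 binds MAdCAM-1 and αEβ7 (CD103) binds E-cadherin on epithelium. CD44 binds hyaluronan, and its surface level, read with CD25 and KIT, is used to stage immature thymocytes, being high on the earliest progenitors and low at the DN3 stage.

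The labels did not match the transgene in these values. *Lmo1* stood at 5.11, 5.07 and 4.86 in the arrays labelled SCLtg LMO1tg, against 6.64, 6.84 and 6.77 in those labelled control, which differ by −1.74 on the log2 scale (SE 0.14, limma adjusted p = 0.00161). No source used here says whether its probe set can read the transgene. Of 63 genes on the array that are listed in the study as changed, 62 differed here in the opposite direction. Every direction below therefore rests on labels that these genes contradict, and is written as the arrays labelled SCLtg LMO1tg minus the arrays labelled control. *Tal1*, the gene of SCL, was too dim to be tested, at 4.55 to 4.71 against 4.27 to 4.44. Of 18 thymocyte genes on the arrays 14 passed the filter on low values, among them *Il2ra* (means of 9.68 and 9.67) and *Ptcra* (10.35 and 9.07) of the DN3 stage, far above the array medians of 5.57 to 5.70, while *Cd8a*, *Cd8b1*, *Cd2* and *Cd5* were below it. The 9 bacterial hybridization control probe sets part the arrays by signal, with means of 10.56 to 10.78 in a high set (SCLtg LMO1tg replicate 1, control replicates 2 and 3) and of 9.12 to 9.78 in a low set, which holds the other 3 arrays.

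No integrin gene and not *Cd44* passed the test over all probe sets. Of the 22 member probe sets, 13 passed a filter that kept probe sets at or above the 40th percentile of the array in at least 3 of the 6 arrays, and these 13 cover all 10 genes. The other 9, with values of 2.55 to 5.33, belong to *Itga4*, *Itga5*, *Itgav*, *Itgb1* and *Cd44* and differed by −0.27 to 0.11, 8 of them below 0. By limma, 0 of the 13 had an adjusted p under 0.05, where 0.102% of the 13776 probe sets tested did (0.0508% higher and 0.0508% lower), and rank products at a percentage of false positives under 0.1 called 0 of the 13, where 0.356% of all were called higher and 0.443% lower. At an unadjusted p under 0.05 there were 3 of the 13, with *Itga6* and *Cd44* higher and *Itgal* lower, where 8.86% of all probe sets tested were (6.18% higher and 2.67% lower). The groups did not overlap in 4 of the 13, 3 of them higher and 1 lower, where 13.2% of all probe sets tested did not overlap, 7.36% higher and 5.82% lower. Differences ran from −0.42 to 0.49 with a median of −0.01, beside a median of 0 over all probe sets tested, and in absolute size the median was 0.23 against 0.16 over all. The 95% intervals of all 13, taken singly, lay between −0.83 and 0.95, so that a 2-fold change lies outside each of them.

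**Figure D1:**
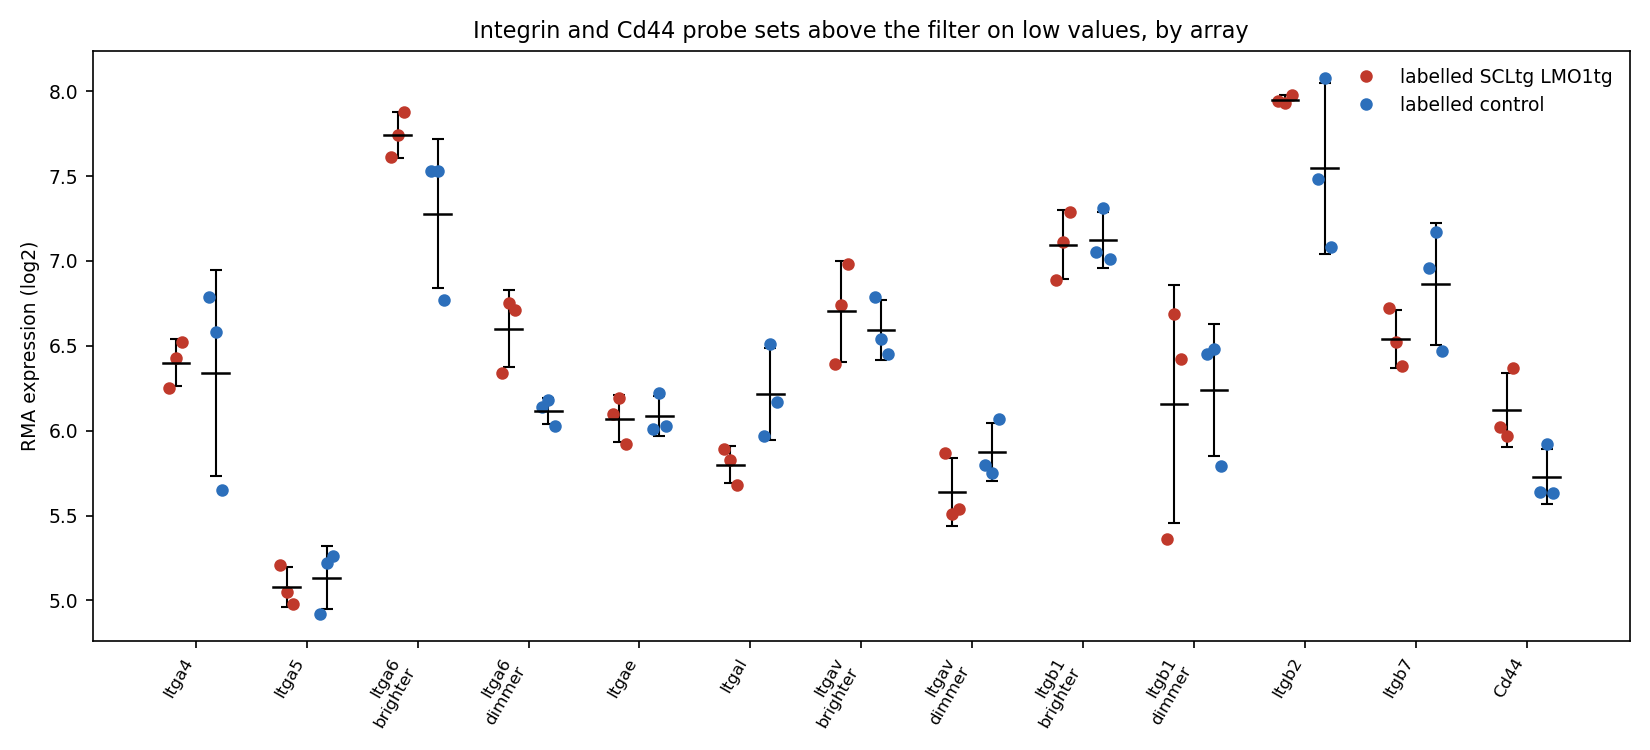
RMA expression (log2, y axis) of the 13 kept integrin and *Cd44* probe sets in each array, with red points for the arrays labelled SCLtg LMO1tg, blue points for those labelled control and black bars for mean and SD (n = 3 each). The groups lie apart in both *Itga6* probe sets, *Itgal* and *Cd44*, and overlap in the other 9.

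Promoter windows were at hand in RefSeq (build GRCm38.p6) for 6 of the 10 genes. Those of *Cd44* and *Itgb7*, the genes with the lowest unadjusted p among the 6, are shown because SCL and its E protein partners bind the E-box CANNTG and the same complexes hold GATA factors. Each sequence is the 250 bases before the annotated start, 5′ to 3′ on the minus strand, with each CANNTG and each GATA (or TATC on this strand) in capitals, and no match of one motif overlapped another.
*Cd44*, chr2:102901666-102901915: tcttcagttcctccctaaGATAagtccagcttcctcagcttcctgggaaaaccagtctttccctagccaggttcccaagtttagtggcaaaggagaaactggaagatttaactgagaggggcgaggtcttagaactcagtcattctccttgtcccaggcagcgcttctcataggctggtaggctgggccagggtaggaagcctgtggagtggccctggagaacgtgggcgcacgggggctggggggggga
*Itgb7*, chr15:102231936-102232185: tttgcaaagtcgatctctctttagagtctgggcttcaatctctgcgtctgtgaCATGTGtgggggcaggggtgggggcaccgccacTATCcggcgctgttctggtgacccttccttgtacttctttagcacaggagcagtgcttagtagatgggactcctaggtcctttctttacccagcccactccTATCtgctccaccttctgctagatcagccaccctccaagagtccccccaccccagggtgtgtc
The *Cd44* window held 0 E-boxes and 1 GATA, and the *Itgb7* window 1 E-box and 2 GATA. Of all 32851 windows of this length, 66.2% held an E-box and 53.6% a GATA on either strand. These are matches of letters and not sites of binding.

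Among the laminin and fibronectin receptors, *Itga6* had the largest difference. *Itga6* encodes α6 (CD49f), the laminin-binding chain, which is also used as a surface marker of blood stem cells. Its brighter probe set read 7.61, 7.74 and 7.88 in the arrays labelled SCLtg LMO1tg, against 7.53, 7.53 and 6.77 in those labelled control. The groups did not overlap, but the gap between the nearest arrays was small, and control replicate 3 stood far below the other arrays. The log2 difference was 0.47 (SE 0.22, limma adjusted p = 0.57), or 1.38-fold, with a 95% interval of −0.02 to 0.95 on the log2 scale. It was 0.21 without control replicate 3.
The dimmer *Itga6* probe set read 6.34, 6.75 and 6.71 in the arrays labelled SCLtg LMO1tg, against 6.14, 6.18 and 6.03 in those labelled control. Here the 3 control arrays lay close together and all below the others. The difference was 0.49 (SE 0.16, unadjusted p = 0.0125, limma adjusted p = 0.44), or 1.40-fold, with a 95% interval of 0.13 to 0.84 on the log2 scale. With the hybridization sets held apart it was 0.24 in the high set and 0.59 in the low set, and the brighter probe set differed by 0.46 in the high set and 0.28 in the low set. Both probe sets are annotated to the same transcript and are not independent. Over the 6 arrays the genes whose values were most like those of the dimmer *Itga6* probe set among all kept probe sets were the mitotic kinase gene *Bub1* (Pearson r = 0.994), *Cibar1* (r = 0.992) and *Fbxo45* (r = 0.986). These correlations describe 6 arrays that share the label difference, and *Bub1* itself differed by 0.88.

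*Itga4*, which encodes the α4 chain shared by α4β1 and α4β7, was spread widely in the controls. It read 6.25, 6.43 and 6.52 in the arrays labelled SCLtg LMO1tg and 6.79, 6.58 and 5.65 in those labelled control, so that the groups overlapped, with control replicate 3 lowest. The difference of 0.06 (SE 0.27, 95% interval −0.55 to 0.67, limma adjusted p = 0.942) turned to −0.29 without control replicate 3 and to −0.09 in a fit with the hybridization sets as blocks. Its other 2 probe sets were below the filter. The brighter of them read 4.46, 4.55 and 4.35 in the arrays labelled SCLtg LMO1tg against 4.56, 4.76 and 4.86 in those labelled control, just without overlap, and the other differed by −0.19.
*Itga5*, the α chain of the classical fibronectin receptor,, had 1 kept probe set. It read 5.21, 5.05 and 4.98 in the arrays labelled SCLtg LMO1tg and 4.92, 5.22 and 5.26 in those labelled control, with overlapping groups. The difference was −0.05 (SE 0.15, limma adjusted p = 0.909), and it turned to 0.02 after a further quantile normalization.
*Itgav*, whose αV chain pairs with several β chains, gave probe sets of opposite sign. Its brighter probe set read 6.39, 6.74 and 6.98 in the arrays labelled SCLtg LMO1tg and 6.79, 6.54 and 6.45 in those labelled control, a difference of 0.11 (SE 0.18, limma adjusted p = 0.845). The dimmer one read 5.87, 5.51 and 5.54 against 5.80, 5.75 and 6.07, a difference of −0.23 (SE 0.16, limma adjusted p = 0.667). In both the groups overlapped, and the first turned to −0.11 within the high hybridization set.

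*Itgb1*, the β1 chain that all these α chains share, differed by little. Its brighter kept probe set read 6.89, 7.11 and 7.29 in the arrays labelled SCLtg LMO1tg and 7.05, 7.31 and 7.01 in those labelled control, a difference of −0.03 (SE 0.16, 95% interval −0.40 to 0.34, limma adjusted p = 0.951) that was 0.02 once each array was centred on its median. The dimmer one was the least even of the 13, with 5.36, 6.69 and 6.42 against 6.45, 6.48 and 5.79. Its SE of 0.33 was the largest of the 13, and its difference of −0.09 (limma adjusted p = 0.933) was −0.77 within the high and 0.10 within the low hybridization set, and 0.31 without SCLtg LMO1tg replicate 1. The other 4 *Itgb1* probe sets were below the filter.

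**Figure D2:**
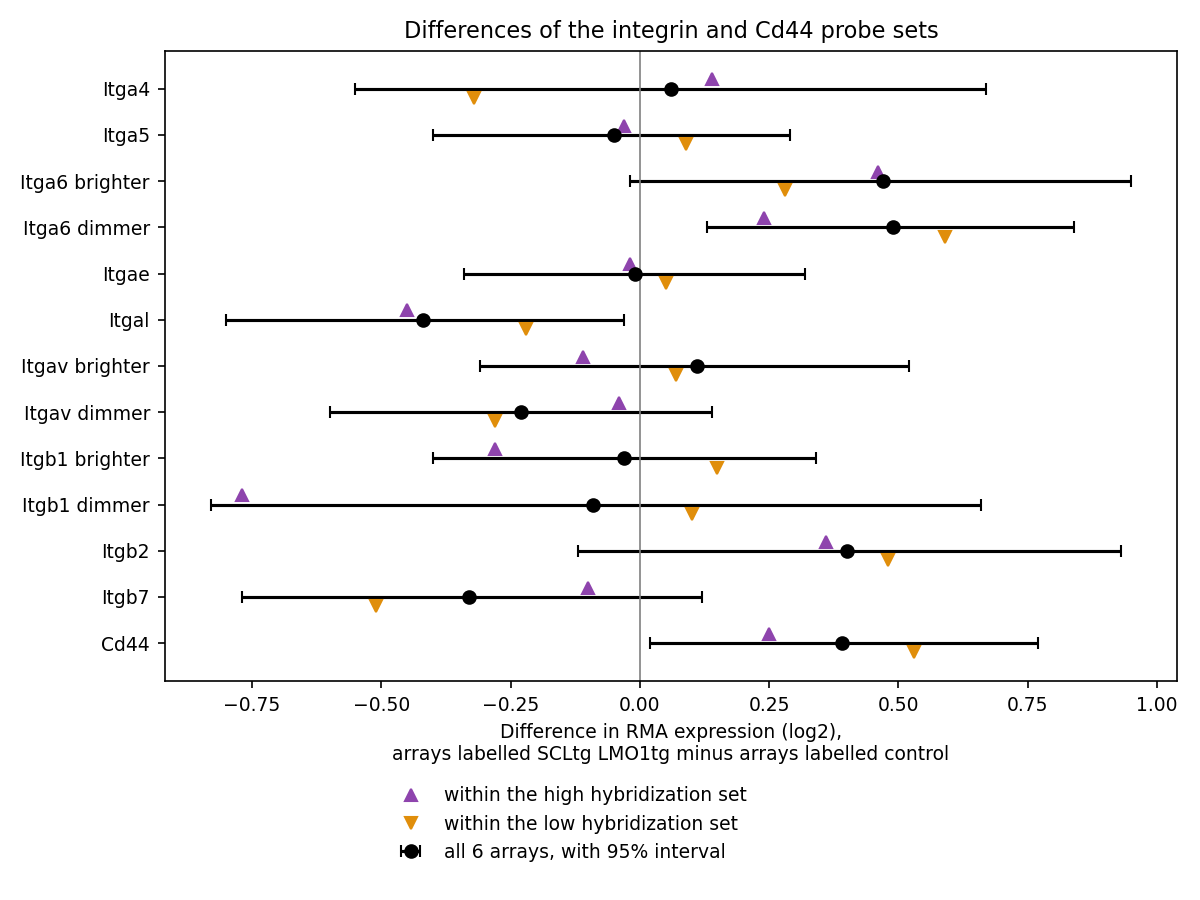
Differences in RMA expression (log2, x axis; arrays labelled SCLtg LMO1tg minus arrays labelled control) of the 13 kept probe sets, with black points and bars for all 6 arrays and their 95% interval, and triangles for the difference within the high and the low hybridization set. The intervals of the dimmer *Itga6* probe set, *Itgal* and *Cd44* leave out 0, and those of the dimmer *Itgb1* probe set and *Itga4* are the widest.

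The balance of α chains that share a β chain was read as the within-array log2 difference of their brightest probe sets, centred on the 6 arrays, for 7 choices of chains. *Itga6* minus *Itga4* stood at 0.22, 0.17 and 0.22 in the arrays labelled SCLtg LMO1tg, against −0.41, −0.19 and −0.02 in those labelled control. The groups did not overlap and the 3 arrays labelled SCLtg LMO1tg lay within a narrow range. The difference was 0.41 (SD 0.03 and 0.20, n = 3 each; exact two-sided permutation p = 0.1, adjusted p = 0.467 over the 7), where 0.1 is the smallest p that 3 against 3 arrays allow. *Itga6* minus *Itga5* differed by 0.52 and *Itga6* minus *Itgav* by 0.36, both with overlapping groups (exact permutation p = 0.2 each). Without control replicate 3 these were 0.20 and 0.18. The other 3 among the β1 partners differed by −0.16 to 0.11, with overlapping groups. For β7, *Itgae* minus *Itga4* differed by −0.07 (exact permutation p = 1).

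**Figure D3:**
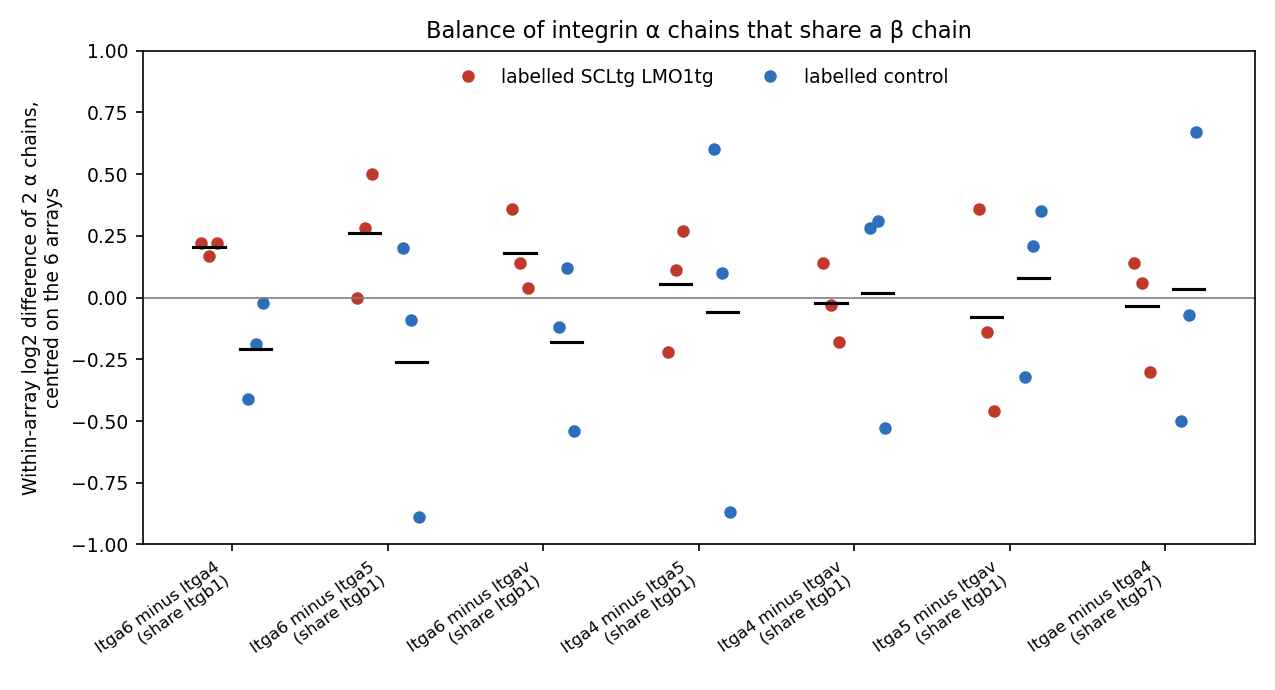
Within-array log2 difference of 2 integrin α chains, centred on the 6 arrays (y axis), for 7 choices of chains that share a β chain, with red points for the arrays labelled SCLtg LMO1tg, blue points for those labelled control and black bars for the means (n = 3 each). The arrays of the labels lie apart for *Itga6* minus *Itga4*, at means of 0.20 and −0.20, and overlap for the other 6.

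The chains of LFA-1 (αLβ2), the main leukocyte integrin for ICAM-1, differed in opposite directions. *Itgal* read 5.89, 5.83 and 5.68 in the arrays labelled SCLtg LMO1tg, against 5.97, 6.51 and 6.17 in those labelled control. All 3 arrays labelled SCLtg LMO1tg were below the lowest control, by a narrow margin. The log2 difference was −0.42 (SE 0.17, unadjusted p = 0.0359, limma adjusted p = 0.527), or 0.750-fold, with a 95% interval of −0.80 to −0.03 on the log2 scale. It was −0.45 within the high and −0.22 within the low hybridization set, and −0.27 without control replicate 2.
*Itgb2*, the β2 chain of LFA-1 and of some other leukocyte integrins, read 7.94, 7.93 and 7.98 in the arrays labelled SCLtg LMO1tg and 7.48, 8.08 and 7.08 in those labelled control. The arrays labelled SCLtg LMO1tg were nearly equal (SD 0.03, n = 3) and lay between the controls (SD 0.50, n = 3), so the groups overlapped. The difference was 0.40 (SE 0.23, 95% interval −0.12 to 0.93, limma adjusted p = 0.618), and it was 0.17 without control replicate 3 and 0.67 without control replicate 2. Other leukocytes also carry β2, and of the neutrophil, macrophage and dendritic, NK and B cell lists only the neutrophil list had summed levels that did not overlap between the labels. Of 12 neutrophil marker genes kept, 7 were higher at an unadjusted p under 0.05, where 6.18% of all probe sets tested were, and 0 passed by limma. *Mmp8*, *Elane*, *Csf3r* and *Cxcr2* differed by −0.02, −0.12, −0.05 and −0.14 and *Mpo* by 0.34, all with overlapping groups. The summed level (log2) of the 12 was 10.66 to 11.77 in the arrays labelled SCLtg LMO1tg against 9.53 to 10.33 in those labelled control, and none of the 12 was below the filter. *Itgam*, the α chain that joins β2 on neutrophils and macrophages, was below the filter, at 3.41 to 3.47 against 3.31 to 3.38. The 12 kept macrophage and dendritic genes had summed levels of 11.29 to 11.80 against 11.32 to 11.94, with 1 gene higher at an unadjusted p under 0.05, and the 7 kept genes of NK and innate lymphoid cells had summed levels of 11.01 to 11.29 against 10.45 to 11.03, also with 1 gene higher. The 7 kept B cell genes ranged from 9.51 to 9.71 against 9.56 to 9.93, with 2 of 7 lower at an unadjusted p under 0.05. The part of these cells in the values of *Itgb2* and *Itgal* was not tested. In whole thymocyte RNA, fewer cells of a type and less RNA per cell cannot be told apart.

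The β7 integrins were read by 1 probe set a gene. *Itgb7*, which pairs with α4 for gut homing and with αE for adhesion to epithelium, read 6.72, 6.52 and 6.38 in the arrays labelled SCLtg LMO1tg, against 6.96, 7.17 and 6.47 in those labelled control. Control replicate 3 was close to the arrays labelled SCLtg LMO1tg and the groups overlapped. The difference was −0.33 (SE 0.20, 95% interval −0.77 to 0.12, limma adjusted p = 0.632), with −0.10 in the high and −0.51 in the low hybridization set. Mast cells and their progenitors carry β7 too. The summed level (log2) of 6 kept mast cell genes was 9.08 to 9.21 in the arrays labelled SCLtg LMO1tg against 10.61 to 10.83 in those labelled control, 1 of the 6 fell (*Cpa3*, at a log2 difference of −2.53), and *Fcer1a*, *Ms4a2*, *Mcpt4* and *Mitf* were below the filter. *Cpa3*, at 7.84 ± 0.16 against 10.37 ± 0.18 (SD, n = 3 each), carries this sum, and the other 5 kept genes did not pass and overlapped between the labels, with differences of −0.08 to −0.23. Their part in *Itgb7* was not tested. *Itgae*, which encodes αE (CD103), read 6.10, 6.19 and 5.92 in the arrays labelled SCLtg LMO1tg and 6.01, 6.22 and 6.03 in those labelled control. These spanned the narrowest range of the 13 kept probe sets, with a difference of −0.01 (SE 0.15, 95% interval −0.34 to 0.32, limma adjusted p = 0.977), whose sign turned with the scaling (0.01 after quantile normalization, 0.04 with arrays centred on their medians).
The gene of the αEβ7 ligand passed the test in the main fit. *Cdh1*, the gene of E-cadherin, rose in the arrays labelled SCLtg LMO1tg, at 5.66, 6.45 and 6.86 against 4.52, 4.31 and 4.24 in those labelled control, with a log2 difference of 1.96 (SE 0.27, limma adjusted p = 0.0423). *Cdh1* passed the filter only through the 3 arrays in which it was high. Its control values all lay below the 40th percentile of their arrays, which stood at 5.09 to 5.24. Leaving out any array but SCLtg LMO1tg replicate 1 ended the call (adjusted p of 0.0747 to 0.306), as did median centring (0.147), a replicate block (0.0931) and no filter on low values (0.0832). The 8 kept genes of thymic stroma, some of whose cells carry E-cadherin, had summed levels of 10.07 to 10.19 against 9.76 to 9.94. Their median difference was −0.13, and *Cdh5*, *Col1a1* and *Col3a1* were below the filter. At an unadjusted p under 0.05, 1 gene was higher (*Epcam*) and 1 lower (*Pecam1*, at −0.49 and without overlap). *Epcam*, at means of 9.14 and 8.57 with overlapping groups, was the brightest of the 8. It carries most of the difference between the group means of the sum, but not the high sum of SCLtg LMO1tg replicate 1. In that array *Epcam* read 8.82, below the 9.03 of control replicate 1, and *Krt8* read 8.43 against 7.03 to 7.35 in the other arrays. The part of these cells in *Cdh1* was not tested.

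*Cd44* had a higher mean in the arrays labelled SCLtg LMO1tg and did not pass the test. Its kept probe set read 6.02, 5.97 and 6.37 in the arrays labelled SCLtg LMO1tg, against 5.64, 5.92 and 5.63 in those labelled control. The groups lay just apart, with SCLtg LMO1tg replicate 3 above all other arrays. The log2 difference was 0.39 (SE 0.17, unadjusted p = 0.0406, limma adjusted p = 0.545), or 1.31-fold, with a 95% interval of 0.02 to 0.77 on the log2 scale. It was 0.25 in the high and 0.53 in the low hybridization set, and 0.27 without SCLtg LMO1tg replicate 3. The other *Cd44* probe set was below the filter, at 3.85 to 4.01 against 3.88 to 4.04, a difference of −0.01.
The genes whose values over the 6 arrays were most like those of *Cd44* among all kept probe sets were *Chil3*, a chitinase-like gene of neutrophils and macrophages (Pearson r = 0.993), *Ermap*, an erythroid membrane gene (r = 0.986), and *Prepl* (r = 0.986). These were picked as the highest of many correlations over 6 arrays that share the label difference, and are given as a description. *Chil3* read 6.93, 6.69 and 8.11 in the arrays labelled SCLtg LMO1tg, against 5.43, 6.27 and 5.56 in those labelled control, the same order of arrays as in *Cd44* except for the 2 lowest controls. *Chil3* is in the neutrophil list and *Ermap* in the erythroid list used here. Neutrophils and red cell precursors also carry CD44. The 7 kept erythroid genes had summed levels of 9.71, 9.76 and 10.57 against 9.63, 9.76 and 9.45, so that only SCLtg LMO1tg replicate 3 stood apart. At an unadjusted p under 0.05, 2 of 7 were higher, and *Hba-a1* and *Rhag* were below the filter. *Slc4a1*, 1 of these 2, differed by −0.05 within the high hybridization set, and *Epor* was lower without overlap, at −0.30. The neutrophil values stand above with *Itgb2*, and the part of either cell type in *Cd44* was not tested.
Of the genes read here with *Cd44* as stage markers, *Ptcra* rose and the other 2 did not pass. *Kit*, high on the earliest progenitors with CD44, differed by −0.23 (SE 0.18, limma adjusted p = 0.683), or −0.09 without control replicate 1, and *Il2ra*, which encodes CD25, by 0.01 (SE 0.23, limma adjusted p = 0.993), which was −0.15 after quantile normalization. *Ptcra*, the pre-TCR α chain expressed at DN3, rose by 1.28 (SE 0.16, limma adjusted p = 0.023), a call that ended with a replicate block (adjusted p = 0.141), with median centring (0.0629) and without any array but control replicate 1 (0.0613 to 0.194). The paper describes *Ptcra* as a direct E protein target whose expression SCL inhibits. A rise in the arrays labelled SCLtg LMO1tg runs opposite to that, as did the genes named above against the labels.

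No array was lowest or highest in all members. Control replicate 3 held the lowest value of 5 of the 13 kept probe sets, namely *Itga4*, both of *Itga6*, *Itgb2* and *Cd44*, and control replicate 2 held the highest value of 5. Across the 6 arrays the brightest probe sets of *Itga6* and *Itgb2* varied together most closely (r = 0.86), followed by *Itga4* and *Itga6* (r = 0.79), while *Itga5* and *Itgav* ran opposite (r = −0.89). These correlations over 6 arrays share the label difference and the array levels, and are given as a description.

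Around the members, 99 genes of integrin function and CD44 biology in 5 lists were read, of which 86 were on the array and 64 passed the filter. Of these 64, 1 rose, 0 fell and 63 did not pass by limma. The 1 that rose, *Cdh1*, passed the filter only through the arrays labelled SCLtg LMO1tg. Of the 64, 7 (10.9%) had an unadjusted p under 0.05, where 8.86% of all probe sets did, and 11 (17.2%) did not overlap between the labels, where 13.2% did. Among 8 kept other integrin subunits the median difference was −0.06 and the range −0.14 to 0.19. The widest were *Itgax*, the α chain of a β2 integrin of dendritic cells, at 0.19 (SE 0.21), and *Itgb3*, the β chain of the platelet integrin, at −0.14 (SE 0.16). *Itgax* was 0.01 without control replicate 3 and *Itgb3* −0.04 without SCLtg LMO1tg replicate 3. In this list 5 genes, *Itgam* among them, were below the filter.
Among 26 kept genes that activate integrins or tie them to actin, 0 passed, and the median was −0.01. At an unadjusted p under 0.05 by limma, 2 were higher and 3 lower, where 8.86% of all probe sets tested were called. Without overlap between the labels, 2 lay higher and 4 lower, where 13.2% of all did not overlap. The 3 lower by p were *Zyx* and *Cytip*, at −0.44 each, and *Flna*, at −0.36. *Parvg*, the parvin of blood cells in the complex with integrin-linked kinase, read 9.60, 9.78 and 9.74 in the arrays labelled SCLtg LMO1tg against 9.49, 8.55 and 9.13 in those labelled control, a difference of 0.65 (SE 0.22, limma adjusted p = 0.456). It was 0.40 without control replicate 2 and 0.31 as the mean of its probe sets. *Crk*, an adaptor, differed by 0.49 (SE 0.31, limma adjusted p = 0.641), with overlapping groups. It was 0.26 without control replicate 3, 0.83 without control replicate 1, 0.01 within the low hybridization set and 0.03 as the mean of its probe sets. *Tln1* and *Fermt3*, the talin and the kindlin that switch integrins of blood cells to the binding state, differed by 0.01 and 0.03.
Besides *Cdh1*, 9 integrin ligands were kept and did not pass. *Vcam1*, the ligand of α4β1, read 7.10, 7.52 and 7.81 in the arrays labelled SCLtg LMO1tg against 7.72, 6.84 and 5.74 in those labelled control, with a difference of 0.71 (SE 0.42, limma adjusted p = 0.625). It was 0.20 without control replicate 3 and −0.05 within the low hybridization set. *Lama5*, a laminin chain bound by α6β1, differed by −0.33 (SE 0.23, limma adjusted p = 0.666), or by −0.10 without SCLtg LMO1tg replicate 3, −0.52 without SCLtg LMO1tg replicate 1 and −0.08 within the high hybridization set. *Icam1* and *Icam2*, ligands of LFA-1, differed by 0.01 and −0.04.
Of 10 kept genes around CD44, the actin linker *Rdx* differed by 0.48 (SE 0.27, limma adjusted p = 0.61) and *Hmmr*, a second hyaluronan-binding protein with a role in mitosis, by 0.37 (SE 0.14, limma adjusted p = 0.49), with no overlap between the labels for *Hmmr*. *Rdx* was 0.06 within the high hybridization set, 0.28 without control replicate 3 and 0.77 without SCLtg LMO1tg replicate 1. Of 10 kept surface proteins that associate with integrins, the tetraspanin *Cd82* differed by 0.50 (SE 0.24, limma adjusted p = 0.58) and *Thy1* by 0.36 (SE 0.21, limma adjusted p = 0.624), both with overlapping groups. Without control replicate 3 *Cd82* was 0.21 and *Thy1* 0.18, *Thy1* was 0.56 without control replicate 1, and the mean of the *Cd82* probe sets differed by 0.18.

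**Figure D4:**
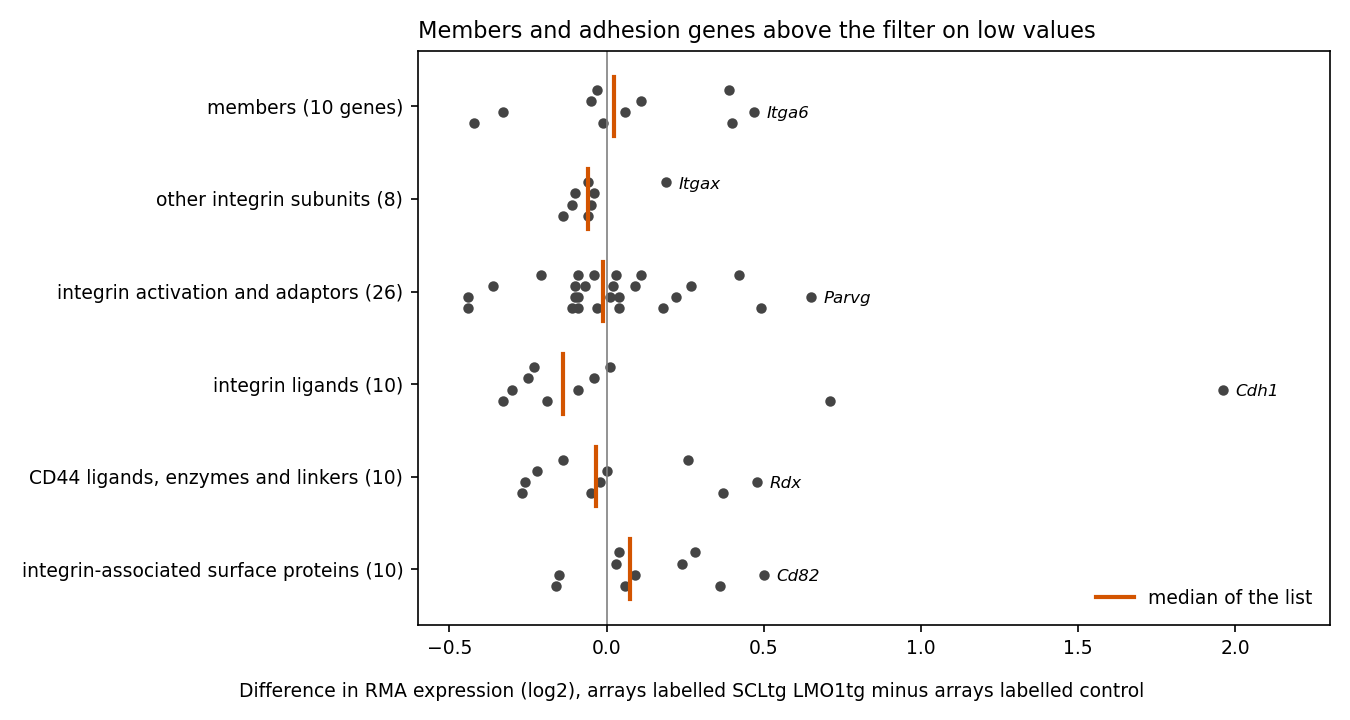
Differences in RMA expression (log2, x axis; arrays labelled SCLtg LMO1tg minus arrays labelled control) of the 10 members, each by its brightest probe set, and of the kept genes of 5 adhesion lists, 1 point a gene with the number of genes in brackets and the list median as an orange bar. *Cdh1*, at 1.96, lies apart from the other genes, and the widest difference in each list is named.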

How the data were processed

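RNA of thymocytes was amplified by the authors and hybridized to Affymetrix mouse expression arrays, 3 per group. The authors summarized and normalized them by RMA (affy package, version not given in the sources used here), and deposited log2 values. Probe sets with absent calls (MAS5), which they removed in a later step, are still among the 22690 of the deposited table. For arrays, the number of arrays limits the precision.

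Genes were named where the platform annotation gives 1 gene (20393 probe sets). After 64 control probe sets and the low values described in the text were left out, 13776 probe sets were fitted with limma 3.58.1 (R 4.3.3) without covariates, with Benjamini-Hochberg adjustment over all of them. Single values were compared with exact permutation tests. Rank products used 9 pairwise differences and 100 permutations. Both were tested on simulated data. Where 1 value per gene was needed, the probe set with the highest mean was used.

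The rule for named genes took the members, genes of each adhesion list that passed or otherwise up to 2 with the widest difference, the 3 genes most like *Itga6* and like *Cd44*, and *Lmo1*, *Tal1*, *Cd3e*, *Cdh1*, *Kit*, *Il2ra* and *Ptcra*. *Cd3e* differed by 0.07 (SE 0.15, limma adjusted p = 0.881). *Tln1*, *Fermt3*, *Icam1*, *Icam2*, *Itgam*, *Vcam1*, *Lama5*, *Cpa3* and the markers named as below the filter were added after their values were seen. So were *Zyx*, *Cytip*, *Flna*, *Epcam*, *Krt8*, *Pecam1*, *Slc4a1*, *Epor*, *Mmp8*, *Elane*, *Csf3r*, *Cxcr2* and *Mpo*. Members, lists and tests were chosen with earlier results of these data known.

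Alternatives were other filters (none, 60th percentile), quantile normalization once more, median centring, trended robust variances, array weights, blocks for replicate number or hybridization set, values within each set, each array left out, gene-level fits, rank products and an adjusted p under 0.1.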

Additional observations from a re-analysis of the deposited data

How the results depend on the processing

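Under every alternative run, 0 integrin or *Cd44* probe sets passed, with a lowest adjusted p of 0.0543 (*Itga6*, array weights). Both *Itga6* probe sets, *Itgal*, the dimmer *Itgav*, *Itgb2*, *Itgb7* and *Cd44* kept their sign under each. Of the adhesion genes 1 passed, against 0 with no filter, a filter at the 60th percentile (which drops *Cdh1*) or median centring, 2 with array weights (*Cdh1* and *Parvg*) and 0 to 1 with 1 array left out. The cause was not tested. Over all probe sets 14 passed, against 360 with array weights, 8 with a replicate block, and 7 to 20 with 1 array left out (7 without SCLtg LMO1tg replicate 2 or 3 or control replicate 2). The number of α chain differences without overlap was 1, and 1 to 2 with 1 array left out.

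Residuals of same-numbered arrays correlated at −0.63, 0.05 and −0.38, so that no pairing by replicate number was seen. Same-numbered arrays always lay in different hybridization sets, so that these correlations cannot exclude a pairing. With the replicate block 0 members passed (lowest adjusted p = 0.932), and 0 adhesion genes did.

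Differences near 0 turned in sign. After quantile normalization *Itga5* was 0.02, *Itgae* 0.01, *Il2ra* −0.15 and *Cd3e* −0.08. With median centring *Itgae* was 0.04 and the brighter *Itgb1* probe set 0.02. With array weights *Itgae* was 0.0017, the dimmer *Itgb1* probe set 0.20 and *Itgax* −0.02. With the hybridization sets as blocks *Itga4* was −0.09, *Itga5* 0.03, *Itgae* 0.01, the brighter *Itgav* probe set −0.02, *Itga4* minus *Itga5* −0.12, *Itga5* minus *Itgav* 0.05 and *Itgae* minus *Itga4* 0.11. Within the high set the brighter *Itgav* probe set was −0.11, *Il2ra* −0.26, *Cd3e* −0.004, *Itga4* minus *Itgav* 0.24 and *Itga5* minus *Itgav* 0.08. Within the low set *Itga4* was −0.32, *Itga5* 0.09, *Itgae* 0.05, the *Itgb1* probe sets 0.15 and 0.10, *Itgax* −0.09, *Vcam1* −0.05, *Itga4* minus *Itga5* −0.41, *Itga5* minus *Itgav* 0.02 and *Itgae* minus *Itga4* 0.37. As the mean of its probe sets *Itgav* was −0.06 and *Il2ra* −0.06.

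With 1 array left out, *Itga4* ranged from −0.29 to 0.28, *Itga5* from −0.16 to 0.01, *Itgae* from −0.07 to 0.06, the brighter *Itgav* from −0.03 to 0.26, the *Itgb1* probe sets from −0.13 to 0.07 and −0.35 to 0.31, and *Il2ra* from −0.16 to 0.28. *Itga6* minus *Itga5* ranged from 0.20 to 0.75, *Itga6* minus *Itgav* from 0.18 to 0.51, *Itga4* minus *Itga5* from −0.30 to 0.44, *Itga4* minus *Itgav* from −0.32 to 0.10, *Itga5* minus *Itgav* from −0.38 to 0.03 and *Itgae* minus *Itga4* from −0.34 to 0.25.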
